A study of Mus musculus with 6 samples.

Results

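The genes of the renin-angiotensin system described here were 9 genes taken by symbol: the precursor Agt, the enzymes Ren1 and Ace, the receptors Agtr1a, Agtr1b and Agtr2, and the receptor partners and peptide-binding proteins Lnpep, Agtrap and Atp6ap2. A row was found for 7 of the 9 among the 28789 genes of the table. Agtr1b and Ren1 matched no row and were not analysed here; every row of the table had a value above 0 in at least 1 library. Poly(A) RNA came from TCMK1, a mouse line of renal tubular epithelial cells. All cells, controls included, received angiotensin II (Ang II). Libraries were labelled by genotype as control (n = 3) or YOD1 overexpression (n = 3), and the stated aim was to find pathways that the deubiquitinase YOD1 acts on in these cells. The dose and time of Ang II and the way YOD1 was overexpressed are not given in the sources used here. No group without Ang II was analysed here, so the values give the system under added ligand and show no response to it.

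Renin cleaves angiotensinogen, the product of Agt, to Ang I, and angiotensin-converting enzyme, the product of Ace, trims Ang I to Ang II. Ang II acts mainly on the AT1 receptor, which rodents encode in Agtr1a and Agtr1b, and AT1 couples to Gq, to arrestins and to JAK2; the AT2 receptor, from Agtr2, often opposes it. The proximal tubule of the kidney is known for making its own angiotensinogen and for AT1-driven sodium uptake, and long exposure of tubules to Ang II is linked to fibrosis.

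Sequences of 250 bases before the annotated gene start are shown for Agt, the source of the peptide, and for Agtrap, an AT1 receptor partner, because they were the members whose upstream sequence held one of the motifs searched. These motifs were TTCNNNGAA, the form that STAT factors downstream of JAK2 bind, and CACGTG, an E-box; each reads the same on both strands, and neither overlapped the other. RefSeq (GRCm38.p6) gave 9 upstream sequences for 8 of the 9 members. The Agt sequence lies on the minus strand at chr8:124569707-124569956 and the Agtrap sequence on the minus strand at chr4:148088065-148088314. Both are printed 5′ to 3′ with the motif match in capitals.

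Agt: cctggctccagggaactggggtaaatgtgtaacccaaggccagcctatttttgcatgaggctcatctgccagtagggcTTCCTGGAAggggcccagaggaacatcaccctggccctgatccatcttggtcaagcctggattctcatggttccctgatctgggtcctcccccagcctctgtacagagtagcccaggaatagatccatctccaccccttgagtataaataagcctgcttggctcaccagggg

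Agtrap: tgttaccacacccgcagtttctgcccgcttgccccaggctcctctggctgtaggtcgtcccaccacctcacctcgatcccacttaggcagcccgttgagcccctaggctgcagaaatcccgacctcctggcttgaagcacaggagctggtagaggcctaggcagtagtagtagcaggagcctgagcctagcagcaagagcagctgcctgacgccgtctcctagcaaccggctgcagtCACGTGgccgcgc

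In Agt the match TTCCTGGAA ran from base -172 to base -164 before the start, and in Agtrap the match CACGTG ran from -13 to -8. Of 32851 RefSeq upstream sequences of this length, 7.02% held TTCNNNGAA and 6.02% held CACGTG, so either match is common. The matches describe these letters and show no binding. The RefSeq build is not the mm8 build named in the submitters' processing notes, and no value of the table was placed by these coordinates.

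Values are in FPKM, fragments scaled to transcript length and to the mapped fragments of the library. A library listed 22045 to 23374 genes above 0; read depth is unknown from FPKM. Yod1 itself was 0.842, 0.757 and 0.684 FPKM in controls 1 to 3 and 1.73, 7.56 and 1.86 FPKM in YOD1 libraries 1 to 3, so all YOD1 libraries were above all controls and YOD1 library 2 stood apart. Its log2 difference was 1.21 (SE 0.37, limma adjusted p = 0.141), and its q-value in the authors' deposited table was 0.0310. Only the YOD1 libraries reached 1 FPKM. Yod1 therefore passed the filter on low values (at least 1 FPKM in at least 3 libraries) through the group where it was high. Its limma test carries that limit. All 8 general renal epithelial markers passed the filter on low values, with summed levels of 679 to 792 FPKM in controls and 759 to 996 in YOD1 libraries. Of 8 proximal tubule markers 3 passed, with sums of 25.8 to 32.6 and 28.1 to 31.9 FPKM, and the transporters Slc34a1 and Slc5a2, which define that segment, were each listed above 0 in 1 library alone. Libraries also differed in markers of tissues foreign to the line, from lists chosen after seeing the data. The summed level of 10 lung epithelial markers was 2.89, 169.6 and 170.5 FPKM in controls 1 to 3 against 197.1, 336.4 and 339.6 in YOD1 libraries 1 to 3, and control 1 had 6 of the 10 at 0. The sum of 7 heart muscle markers was 70.1, 71.9 and 53.8 FPKM in the controls but 1.84, 2.16 and 74.5 in the YOD1 libraries. Whether the replicates were separate cultures is not stated, so the p-values reflect the spread among these libraries alone, and that spread may be technical.

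The members spanned the range from abundant to barely listed. Averaged over 6 libraries, Atp6ap2 stood at 21.5 FPKM and Agtrap at 17.7, higher than 90.0% and 88.4% of listed genes. Lnpep followed at 1.56 FPKM, then Agt at 0.733 and Ace at 0.712. The receptor genes came last, Agtr1a at 0.0407 FPKM and Agtr2 at 0.00699, while 37.2% of all listed genes averaged under 0.1 FPKM. Ordered by level, neighbours were separated beyond their whole range in 2 places, between Agtrap and Lnpep and between Ace and Agtr1a. Atp6ap2 overlapped Agtrap, Lnpep overlapped Agt, Agt overlapped Ace and Agtr1a overlapped Agtr2. FPKM is scaled to transcript length, so these levels can be set side by side. In these libraries RNA for proteins that bind the receptor or prorenin was thus abundant, RNA of the precursor and the converting enzyme was low, and that of the AT1 and AT2 receptors was near 0.

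**Figure D1:**
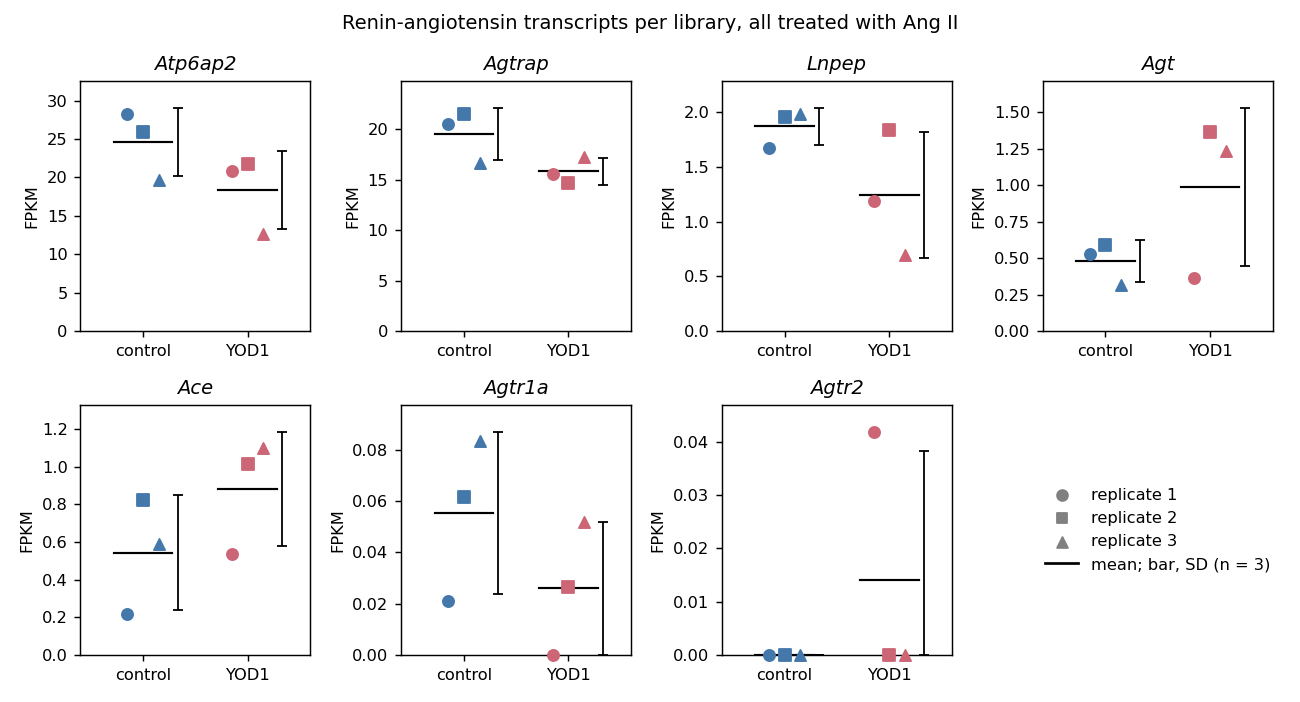
FPKM (linear axis, one panel per gene) of the 7 members with a row in each of 3 control and 3 YOD1 libraries; each point is a library, its marker shape gives the library number, and the horizontal line is the group mean with a bar of 1 SD on either side, stopped at 0. In every panel the groups overlap, and Agtr2 has a single value above 0.

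**Figure D2:**
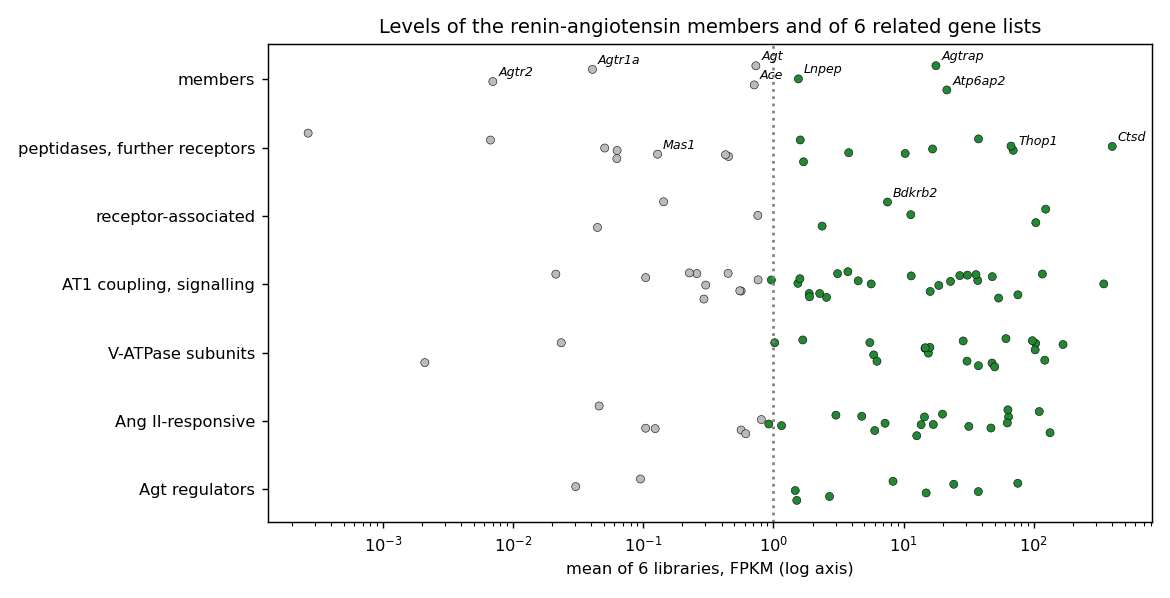
Mean FPKM over 6 libraries (log axis) of each gene of the members and of the other pathway lists; each point is a gene, green where it passed the filter on low values and grey where it did not, and the dotted line marks 1 FPKM. Atp6ap2 (21.5) and Agtrap (17.7) lie in the range of the V-ATPase and receptor-associated genes that passed, while Agtr1a (0.0407) and Agtr2 (0.00699) lie at the low end, below Mas1.

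Groups were compared with limma on log2(FPKM + 1), which understates changes of low genes, and a difference is YOD1 minus control. Genes needed at least 1 FPKM in at least 3 libraries, which 11483 genes passed, Lnpep, Agtrap and Atp6ap2 among them; Agt, Ace, Agtr1a and Agtr2 did not pass. At a limma adjusted p of 0.05, 0 of the 3 members were called, and 0 had an unadjusted p under 0.05; among all tested genes 51 were called higher and 4 lower, or 0.479%. With 3 genes tested and that background, a count of 0 says little about the members. No member of the 7 had groups that did not overlap, where 28.9% of tested genes had. All 3 tested members were lower in YOD1 by their means, as were 63.6% of tested genes, whose median difference was -0.10.

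Agt, the gene of angiotensinogen, the single precursor of all angiotensins, was listed at 0.529, 0.593 and 0.316 FPKM in controls 1 to 3 and at 0.365, 1.36 and 1.24 in YOD1 libraries 1 to 3. YOD1 libraries 2 and 3 were above every control, while YOD1 library 1 lay inside the control range. The means were 0.479 ± 0.145 FPKM (SD, n = 3) and 0.987 ± 0.543 (SD, n = 3), a ratio of 2.06. The difference of log2(FPKM + 1) was 0.39. The exact permutation test of mean FPKM gave p = 0.3 (two-sided, where 3 against 3 cannot go below 0.1). With a filter that also kept genes averaging at least 0.5 FPKM, chosen after seeing the data, limma gave an SE of 0.21, a 95% interval from -0.08 to 0.86 and an adjusted p of 0.314; under that filter 0.363% of genes were called. Leaving out YOD1 library 1 gave 0.64, and leaving out YOD1 library 2 gave 0.24. In the authors' deposited table the q-value of Agt was 0.360.

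The liver is the main source of angiotensinogen in the body, and glia make it in the brain, so markers of those tissues were read in the same libraries. Of the hepatocyte markers, Alb, the gene of serum albumin, was listed at 0 in 5 libraries and at 0.717 FPKM in YOD1 library 1, where Agt was low. Apoa1, an apolipoprotein gene, was listed at 0, 0.0932 and 0.205 FPKM in controls 1 to 3 and at 0 in all YOD1 libraries. The third, Ttr, the transthyretin gene of liver and choroid plexus, was 3.84, 3.17 and 1.96 FPKM in controls 1 to 3 and 5.50, 16.4 and 14.4 in YOD1 libraries 1 to 3. The sum of 5 hypothalamic neuropeptide genes, from a list chosen after seeing the data, was 0.843, 0.474 and 0.847 FPKM in controls and 1.03, 4.04 and 4.04 in YOD1 libraries, with 1 or 2 of the 5 at 0 in each library. Avp, the vasopressin gene in that list, was 0.306, 0.193 and 0.209 FPKM in controls and 0, 1.40 and 1.58 in YOD1 libraries. The sum of 7 glial and neuronal markers was 33.8 to 37.7 FPKM in controls and 44.3 to 48.8 in YOD1 libraries. YOD1 libraries 2 and 3 were thus the highest for Agt, Ttr, Avp and the neuropeptide sum. They were also the highest for the hepatocyte, endothelial, lung epithelial and renin cell and pericyte sums. The order was therefore not particular to markers of liver or brain. In the sums of the remaining marker lists, the glial and neuronal one included, these libraries were not both on top. The part of these markers in the Agt values was not tested.

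Ace, the gene of the enzyme that makes Ang II and degrades bradykinin, was listed at 0.216, 0.821 and 0.588 FPKM in controls 1 to 3 and at 0.535, 1.01 and 1.10 in YOD1 libraries 1 to 3. YOD1 libraries 2 and 3 were again above all controls, and YOD1 library 1 lay below 2 of them. The means were 0.542 ± 0.305 FPKM (SD, n = 3) and 0.883 ± 0.304 (SD, n = 3), a ratio of 1.63. The log2 difference was 0.29 (exact permutation test of mean FPKM, p = 0.3), and limma with the wider filter gave an SE of 0.18 and an adjusted p of 0.378. Without control 1, the lowest library, it was 0.13, and without YOD1 library 1 it was 0.43. The authors' deposited table gave Ace a q-value of 0.517.

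Ace is a gene of endothelium, most of all in the lung, besides the brush border of the proximal tubule. The sum of 5 endothelial markers was 0.730, 1.35 and 1.40 FPKM in controls 1 to 3 and 1.34, 1.96 and 2.24 in YOD1 libraries 1 to 3, and none of the 5 was at 0 in any library. Pecam1, an adhesion molecule of endothelium, was 0.276, 0.512 and 0.644 FPKM in controls and 0.556, 0.851 and 0.932 in YOD1 libraries. Tek, another of the 5, was 0.154, 0.220 and 0.209 FPKM in controls and 0.268, 0.200 and 0.333 in YOD1 libraries. Sftpc, the surfactant protein gene that defines alveolar type II cells, was 0, 30.1 and 26.1 FPKM in controls and 32.6, 61.5 and 59.9 in YOD1 libraries. Control 1 was lowest and YOD1 libraries 2 and 3 highest for Ace, for the endothelial sum and for the lung epithelial sum. The proximal tubule sum did not have that order and was highest in control 3. It was 26.9, 25.8 and 32.6 FPKM in controls 1 to 3 and 31.9, 28.1 and 31.9 in YOD1 libraries 1 to 3. Most of that sum was Aqp1, at 16.5 to 22.9 FPKM. Of its other markers, Ggt1 was lowest in control 1 (4.92 FPKM) and highest in YOD1 library 3 (8.27). Lrp2 was lowest in YOD1 library 3 (1.88 FPKM). The part of these markers in the Ace values was not tested. In bulk RNA, more cells of a type and more RNA per cell cannot be told apart.

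**Figure D3:**
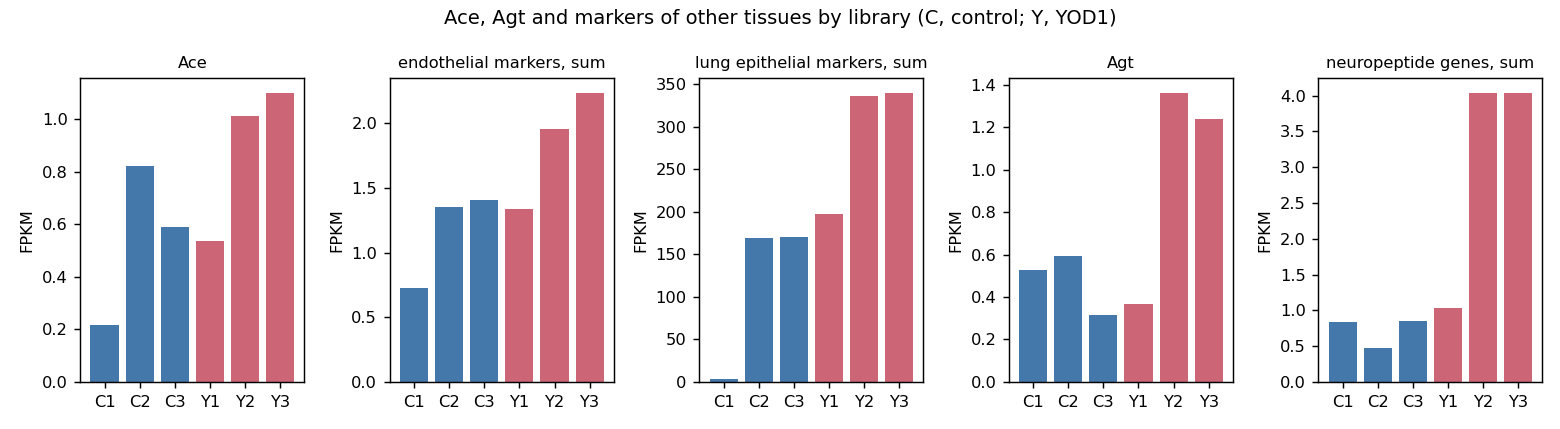
Ace and Agt (FPKM) in each of the 6 libraries beside the summed FPKM of the endothelial, lung epithelial and hypothalamic neuropeptide markers. Each bar is a library, blue for controls (C) and red for YOD1 libraries (Y), on axes that start at 0. YOD1 libraries 2 and 3 are highest in every panel, and control 1 is lowest for Ace, the endothelial sum and the lung epithelial sum.

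Agtr1a, the main AT1 receptor gene of the mouse kidney, was listed at 0.0211, 0.0617 and 0.0835 FPKM in controls 1 to 3 and at 0, 0.0263 and 0.0518 in YOD1 libraries 1 to 3. Divided by the lowest value above 0 in their group, the controls stood at 1, 2.92 and 3.95 and YOD1 libraries 2 and 3 at 1 and 1.97. Values this low can rest on a few fragments per library, and fragment counts were not used here. The groups overlapped (exact permutation p = 0.3), and a difference in the receptor was not detectable at this level. Agtr2, the gene of the AT2 receptor, was listed at 0 in 5 libraries and at 0.0420 FPKM in YOD1 library 1. The authors' deposited table gives Agtr2 a ratio of 139.9 with a q-value of 0.883; the control mean under that ratio is 0, so no fold can be read from it. The cells were treated with Ang II throughout, and receptor RNA before treatment was not measured in the libraries analysed here.

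Lnpep, the gene of insulin-regulated aminopeptidase, which binds the Ang IV fragment and cleaves vasopressin and oxytocin, was 1.67, 1.95 and 1.98 FPKM in controls 1 to 3 and 1.19, 1.84 and 0.697 in YOD1 libraries 1 to 3. The controls were close to each other, YOD1 library 2 lay among them, and YOD1 library 3 was lowest. The means were 1.87 ± 0.170 FPKM (SD, n = 3) and 1.24 ± 0.573 (SD, n = 3). The log2 difference was -0.39 (SE 0.20, 95% interval -0.82 to 0.05, limma adjusted p = 0.284). At 12052 bases the longest annotated transcript of Lnpep exceeded that of 99.4% of tested genes with a length. In YOD1 library 3 the median deviation from the control mean ran from 0.15 in the shortest of 10 equal classes of tested genes by length to -0.56 in the longest. With each library corrected for transcript length and GC content the Lnpep difference was -0.09 (limma adjusted p = 0.634), and without YOD1 library 3 it was -0.20.

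Agtrap, whose product binds the tail of the AT1 receptor and promotes its internalisation, was 20.5, 21.5 and 16.6 FPKM in controls 1 to 3 and 15.6, 14.7 and 17.3 in YOD1 libraries 1 to 3. Controls 1 and 2 were above all YOD1 libraries, while control 3 was below YOD1 library 3. The means were 19.6 ± 2.58 FPKM (SD, n = 3) and 15.9 ± 1.33 (SD, n = 3). The log2 difference was -0.28 (SE 0.14, 95% interval -0.60 to 0.04, limma adjusted p = 0.285). Across the 15 alternative settings it stayed between -0.39 and -0.19, with limma adjusted p between 0.188 and 0.542.

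Atp6ap2, the gene of the (pro)renin receptor, which also serves the assembly of the V-ATPase proton pump, was 28.3, 25.9 and 19.6 FPKM in controls 1 to 3 and 20.9, 21.7 and 12.6 in YOD1 libraries 1 to 3. Control 3 lay below YOD1 libraries 1 and 2, and YOD1 library 3 was the lowest of all. The means were 24.6 ± 4.46 FPKM (SD, n = 3) and 18.4 ± 5.04 (SD, n = 3). The log2 difference was -0.42 (SE 0.22, 95% interval -0.91 to 0.06, limma adjusted p = 0.287), and it was -0.18 without YOD1 library 3. Corrected for transcript length and GC content it was -0.39; its longest annotated transcript has 2324 bases, below the median of 3018 bases.

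**Figure D4:**
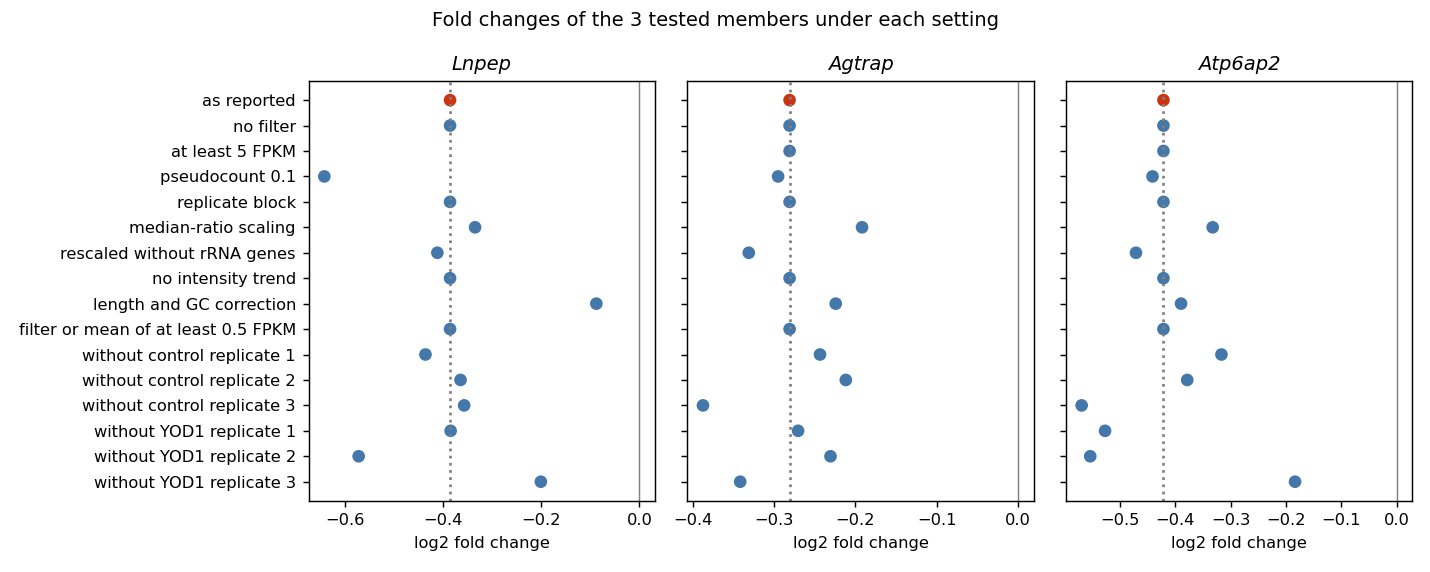
Log2 difference, YOD1 minus control, of the 3 tested members under the main and the alternative settings; each point is a setting, red for the values reported and blue for the alternatives, with a dotted line at the reported value and a solid one at 0. All lie below 0, from -0.39 to -0.19 for Agtrap, from -0.57 to -0.18 for Atp6ap2 and from -0.64 to -0.09 for Lnpep.

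The genes whose pattern over 6 libraries was most like that of each tested member were taken by the smallest distance between centred log2(FPKM + 1) values. For Lnpep they were Atf2, a transcription factor (distance 0.0605), and Vps13c, a lipid transfer protein (0.0792). Vps13c, at 11527 bases, is also among the longest transcripts, while Atf2, the nearer gene, has 4210 bases. For Agtrap they were Lztr1, an adaptor of a ubiquitin ligase (0.0530), and Tubb4b, a beta-tubulin (0.0581). For Atp6ap2 they were Lbr, the lamin B receptor (0.110), and Snap29, a membrane fusion protein (0.118). The 6 genes had limma adjusted p-values from 0.269 to 0.314.

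The other genes of the pathway were read in 6 lists of 117 symbols, of which 113 had a row and 84 passed the filter. By limma 1 of the 84 was called, higher; at an unadjusted p under 0.05 there were 4 higher and 17 lower, against 904 higher (7.87%) and 1494 lower (13.0%) among all tested genes. The 84 had a median log2 difference of -0.18 with 67 below 0, or 79.8%. With median-ratio scaling, which moved the median of all genes from -0.10 to -0.02, the median of the 84 was -0.09 and 56 were below 0. Groups did not overlap for 23 of the 84, or 27.4%, close to the share of all tested genes.

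Of the angiotensin peptidases and further receptors 9 of 17 listed genes passed the filter, with 0 called, 6 below 0 and a median difference of -0.14. Thop1, the gene of thimet oligopeptidase, which makes Ang 1-7 from Ang I, was 54.4 ± 9.83 FPKM in controls and 84.7 ± 17.1 in YOD1 libraries (SD, n = 3). Its log2 difference of 0.63 did not pass (limma adjusted p = 0.127), although the groups did not overlap. In the authors' deposited table Thop1 had a q-value of 0.0499 and was not marked significant. Ctsa, the cathepsin A gene, went from 80.3 to 53.4 FPKM (-0.56, limma adjusted p = 0.144). Without control 3, its lowest control, Ctsa was called lower (-0.75, limma adjusted p = 0.0398). It was not called without control 1 (-0.49, limma adjusted p = 0.350) or without control 2 (-0.44, limma adjusted p = 0.397). Klk1, the gene of tissue kallikrein, at -0.55, and Prcp, a carboxypeptidase that cleaves Ang II, at -0.23, did not pass. Mas1, the Ang 1-7 receptor gene, was barely listed, at 0.0538 to 0.206 FPKM. Enpep, the aminopeptidase that makes Ang III, was at 0 to 0.155 FPKM.

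Of the genes through which AT1 couples and signals 24 of 34 passed the filter, 0 were called, and 21 were below 0 with a median of -0.25. Groups did not overlap for 11 of the 24, or 45.8%, all lower in YOD1, where 28.9% of all tested genes did not overlap and 19.1% did so with YOD1 lower. The median transcript of this list was 4829.5 bases long against 3018 bases for all tested genes, and after the length and GC correction the median difference was -0.12. The members of lowest p were Plcb3, a phospholipase C isoform that Gq activates (44.2 ± 6.86 against 30.05 ± 2.58 FPKM, SD, n = 3), and the guanine nucleotide exchange factor Arhgef11 (13.6 against 9.30). Arrb1, an arrestin that ends receptor coupling, averaged 5.36 against 3.60 FPKM, and Arhgef12, another exchange factor, 4.72 against 2.75. Their log2 differences were -0.53, -0.50, -0.46 and -0.65, with limma adjusted p-values of 0.116 to 0.160, so none passed.

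Of the receptor-associated genes 5 of 8 passed the filter, with 0 called, 4 below 0 and a median of -0.18. Bdkrb2, the gene of the bradykinin B2 receptor, was 8.73 ± 1.51 FPKM in controls and 6.32 ± 0.243 in YOD1 libraries (SD, n = 3), a log2 difference of -0.40 that did not pass (limma adjusted p = 0.210). Gabarap, a trafficking protein that binds AT1, differed by -0.22, Arap1 by -0.18 and the scaffold gene Slc9a3r1 by 0.10, and none passed.

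Of the V-ATPase subunits, which work beside the product of Atp6ap2, 20 of 22 passed the filter, with 0 called, 16 below 0 and a median of -0.22 against -0.42 for Atp6ap2. Atp6v0a1, a membrane sector subunit, was 37.1 ± 5.77 FPKM in controls and 24.3 ± 2.37 in YOD1 libraries (SD, n = 3), a log2 difference of -0.58 that did not pass (limma adjusted p = 0.105). Atp6v1c1 differed by -0.55 and Atp6v0d1 by -0.59, while Atp6v0e differed by 0.38, all short of the threshold.

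Of genes known to respond to Ang II 18 of 24 passed the filter, with 0 called, 14 below 0 and a median of -0.11. Ccn2, the gene of connective tissue growth factor, was 12.5, 10.6 and 9.75 FPKM in controls 1 to 3 and 16.3, 16.0 and 16.7 in YOD1 libraries 1 to 3. All YOD1 libraries were above all controls, and the log2 difference of 0.54 (SE 0.14) did not pass (limma adjusted p = 0.111). Its q-value in the authors' deposited table was 0.0281, but Ccn2 was not marked significant there. Egr1, an immediate early transcription factor, was 67.7, 71.1 and 15.4 FPKM in controls and 11.5, 12.5 and 11.9 in YOD1 libraries, so control 3 lay near the YOD1 group. Its log2 difference was -1.74 (SE 0.47, limma adjusted p = 0.116). The immediate early genes Fos (4.50 ± 2.39 against 1.54 ± 0.223 FPKM, SD, n = 3) and Nr4a1 (7.83 ± 2.71 against 4.17 ± 0.369) were likewise lower in control 3 than in the other controls and did not pass by limma; in the authors' deposited table the q-value of Fos was 0.00832. Without control 3 all 3 were called lower by limma, Egr1 at -2.44 (adjusted p = 0.000798), Fos at -1.44 (adjusted p = 0.0130) and Nr4a1 at -1.01 (adjusted p = 0.0307). In that fit 97 of all tested genes, or 0.845%, were called lower, against 4 with all libraries. Control 3 was the control nearest the YOD1 group for Egr1, Fos and Nr4a1, so leaving it out enlarges each difference. Without control 1 they were -1.41, -0.81 and -0.56, and without control 2 -1.37, -0.75 and -0.60. None was called in those fits (limma adjusted p from 0.312 to 0.405).

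Of factors known to regulate Agt 8 of 10 passed the filter, with 6 below 0 and a median of -0.12, and 1 was called. Cebpd, the gene of a C/EBP factor of the acute phase response, was 0.739, 0.763 and 1.14 FPKM in controls 1 to 3 and 3.95, 6.22 and 3.37 in YOD1 libraries 1 to 3. Every YOD1 library was above the highest control, and Cebpd rose by 1.53 (SE 0.21, limma adjusted p = 0.0168). Of the controls only control 3 reached 1 FPKM, so Cebpd passed the filter through the YOD1 libraries, where it was high, and its count as a called gene carries that limit. The call was lost without control 1 (1.47, limma adjusted p = 0.0784), without control 2 (1.48, adjusted p = 0.0821), with the replicate number as a block (1.53, adjusted p = 0.0552) and with no filter on low values (1.53, adjusted p = 0.249). In the authors' deposited table Cebpd had a q-value of 1.03e-15 and was marked significant. Stat3, a factor that JAK2 activates, was 9.57 ± 0.720 FPKM in controls and 7.02 ± 0.991 in YOD1 libraries (SD, n = 3), with a log2 difference of -0.40 that did not pass (limma adjusted p = 0.189). Rela, an NF-kappaB subunit, at -0.29, and Nr3c1, the glucocorticoid receptor gene, at -0.33, did not pass.

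**Figure D5:**
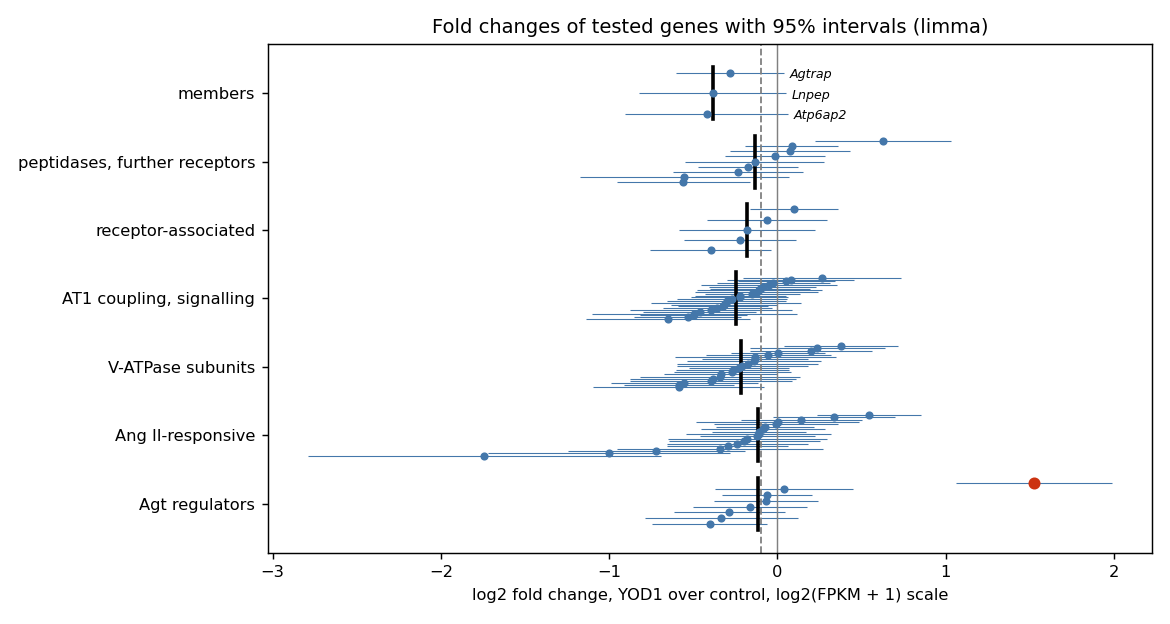
Log2 difference, YOD1 minus control, of each tested gene by list; each point is a gene with its 95% interval, black bars are list medians, the dashed line is the median of all tested genes (-0.10) and red marks the gene past the limma threshold. The 3 members lie at -0.28, -0.39 and -0.42, and Cebpd (1.53) is the one red point.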

How the data were processed

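The authors deposited 1 table with FPKM for each gene in each library. Beside FPKM it holds the authors' ratio of YOD1 to control, also on a log2 scale, and their p-value, q-value and mark of significance. The sources used here do not name their test. Bowtie 0.12.2, HISAT2 2.0, StringTie 1.3.0 and build mm8 are named in the submitters' processing notes. FPKM keeps no read depth, and library strand is not stated, so overlapping genes cannot be separated with certainty.

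Values were transformed to log2(FPKM + 1). Genes that reached 1 FPKM in 3 or more libraries (11483 of 28789) were fitted by group in limma 3.58.1 under R 4.3.3 (eBayes with trend, two-sided, p adjusted by Benjamini-Hochberg over all tested genes, threshold 0.05). The fit was tested on simulated data. Alternatives were other filters, a pseudocount of 0.1, a replicate block, other scalings, no trend, a length and GC correction (splines with 4 degrees of freedom) and each library left out; one wider filter was chosen after seeing the data. Single genes under the filter were compared by exact permutation of the difference in mean FPKM, without log2, with scipy 1.17.1 under Python 3.11.15. Lengths and GC content came from GENCODE M21, another build than mm8, and upstream sequences from RefSeq.

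The members and lists were chosen with earlier results of these data known. Named genes were all members, Yod1, the called genes and the 4 of lowest p of each other pathway list, and the 2 genes nearest to each tested member. Of the marker lists, 4 were added after seeing the data, and marker genes, Mas1 and Enpep were named after their values were seen. Values of some list members are not reported here.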

Additional observations from a re-analysis of the deposited data

How the results depend on the processing

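The tested members were called in 0 of the alternatives. The differences of Lnpep, Agtrap and Atp6ap2 stayed below 0 in each that tested them (Lnpep was not tested at the filter of 5 FPKM). At an unadjusted p under 0.05, limma had 2 of the 3 without control 3 and 2 without YOD1 library 2. Those fits had 2308 and 2646 of all 11483 tested genes at that level. Limma had 1 of the 3 with the replicate block, 1 with rRNA genes left out of the total and 1 without YOD1 library 3. In these fits 2251 of 11483, 2446 of 11478 and 2308 of 11483 genes were at that level. With 3 genes tested, such counts say little about the members. Of all tested genes, limma called 51 higher and 4 lower. These counts were 0 and 0 with no filter, 142 and 9 with median-ratio scaling, 28 higher with rRNA genes left out of the total, and 14 higher against 6 lower after the length and GC correction. Leaving out each library in turn gave 17 to 145 higher and 1 to 97 lower. Of the other pathway genes 1 was called, against 0 with no filter, 0 at a filter of 5 FPKM and 0 to 5 with each library left out. The 5 called without control 3 were Cebpd, Egr1, Ctsa, Fos and Nr4a1. At an unadjusted p under 0.05, limma had 21 of 113 of these genes with no filter and 14 of 60 at 5 FPKM. Among all tested genes it had 3427 of 28789 and 1639 of 7061.

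With the replicate number as a replicate block, limma called 33 genes higher and 8 lower, and 0 of the other pathway genes. At an unadjusted p under 0.05 it had 19 of the 84, against 2251 of all 11483 tested genes. Cebpd had a limma adjusted p of 0.0552 in that fit. Same-numbered libraries deviated from their group means with correlations of 0.296, -0.121 and -0.112 across genes. Libraries of unlike number ran from -0.409 to 0.339. Deviations within a group of 3 libraries sum to 0, so these correlations cannot decide whether the numbers pair the libraries. A pseudocount of 0.1 gave Lnpep a difference of -0.64. For genes under 1 FPKM, Agt, Ace, Agtr1a and Agtr2 among them, the unknown depth limits what can be compared.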
